A study of Mus musculus with 103 samples.

Results

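Metastases were compared with dissected primary tumours of the same type in mice in which cells expressing Prom1 had been lineage traced and targeted with oncogenic lesions. The comparison held every sample whose tissue label names a metastasis, 7 in all, and the 23 dissected primaries of the same 4 tumour types, so 30 of the 103 arrays of the series. Gastric adenocarcinoma had 4 primaries, 1 abdomen metastasis and 1 liver metastasis. Hepatoblastoma, a liver tumour of immature hepatocyte-like cells, had 2 primaries and 1 lung metastasis. Tumours labelled hepatocellular carcinoma/cholangiocarcinoma, abbreviated here HCC/CC, had 14 primaries, 1 intestine metastasis and 1 lung metastasis. Uterine carcinoma had 3 primaries, 1 abdomen metastasis and 1 liver metastasis. The labels give no genotype, oncogene, age, sex or array batch for these samples. They do not say which organ or wall of the abdomen, or which part of the intestine, was sampled. Nor do they say which metastasis came from the animal of which primary. Nothing states that samples of a group came from separate mice, so p-values measure the spread between these samples, which may be partly technical.

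A metastasis is a colony that tumour cells found in another organ, and a dissected colony carries cells of its host along with tumour cells. Hepatocytes secrete albumin, apolipoproteins and fibrinogen, alveolar type II and club cells of the lung secrete surfactant and secretoglobins, adipocytes secrete adiponectin and resistin, and the gut lining secretes mucins and resistin-like proteins. Such products mark the host, unless the tumour itself comes from that lineage, as hepatoblastoma and HCC/CC do for liver. Prom1, the pentaspan membrane protein CD133, marks epithelial progenitors and is the gene by which the traced cells were chosen.

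All levels are log2 array signals, a difference is a log2 difference with its standard error, and a gene was called when its adjusted p was below 0.05 and its difference was at least 1. The 30 arrays had medians between 3.82 and 4.04, and no pair held identical values. The median difference over all 12659 genes tested lay between -0.02 and 0.07 in every comparison with primaries. Genes were assigned to host organs from 40 other arrays of sorted Prom1+ cells, which enter no comparison of tumours. Liver, lung, small intestine, stomach, uterus, kidney, prostate and salivary gland were the 8 organs compared. The 40 also held 9 arrays of DDC-treated liver and 3 of neonatal liver, which entered the estimate of the spread but no organ's mean. A liver gene was at least 2 log2 units higher in liver than in the mean of the other 7 organs with an adjusted p below 0.05, and lung, small intestine, stomach and uterus genes were defined likewise. By that measure 684 liver, 701 lung, 699 small intestine and 829 uterus genes were among those tested.

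With tumour type as a block, 1 gene rose in metastases over all 4 tumour types and none fell (limma, 0.0079% of genes called). Has2, hyaluronan synthase of the cell surface, was at 6.53 in the gastric abdomen metastasis and 6.86 in the gastric liver metastasis, against 5.46, 5.66, 5.80 and 5.22 in gastric primaries 1 to 4. In uterine carcinoma it was at 8.07 in the abdomen metastasis and 7.75 in the liver metastasis, against 4.28, 3.43 and 3.88. The hepatoblastoma metastasis had 3.87 against 3.32 and 3.63. The HCC/CC intestine metastasis had 4.89 and the lung metastasis 4.05, against primaries with a lowest value of 2.97, a median of 3.43 and a highest of 4.61. Has2 thus lay above every primary of its own type in 6 of 7 metastases, with the HCC/CC lung metastasis inside the range of its primaries. The hepatoblastoma values were all below 4.15, the value of the expression filter, so the gap there is one of weak signals. Has2 was picked by this contrast, so the count of metastases describes the gene and adds no separate support. The pooled difference was 1.68 ± 0.31 (limma, adjusted p = 0.0491). The call was narrow, since it was kept in 4 of the 30 fits that left out 1 array, and an unadjusted p below 0.05 was found for 1168 genes. The rise was 4.05 ± 0.36 in uterine carcinoma (limma, adjusted p = 8.99e-08) and differed between the 4 tumour types (limma F test, adjusted p = 0.000759).

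Prom1 itself did not pass the test, with a pooled difference of 1.36 ± 0.96 (limma, adjusted p = 0.669). Its level was 8.0 in the gastric abdomen metastasis and 7.59 in the gastric liver metastasis, against 3.68, 5.86, 8.02 and 6.66 in the gastric primaries. The hepatoblastoma metastasis had 9.48 against 9.62 and 8.23. In HCC/CC the intestine metastasis had 7.84 and the lung metastasis 8.33, against primaries between 2.96 and 10.96 with a median of 7.74. In uterine carcinoma the abdomen metastasis had 10.38 and the liver metastasis 8.67, against 10.73, 2.66 and 9.51. Every metastasis therefore lay within the range of the primaries of its own type for this marker.

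Programs that are often followed in metastasis held no called gene in the pooled comparison. Among 19 proliferation genes all 19 lay above 0 with a median difference of 0.42, against a median of 0.03 over all genes tested. The types were not alike, with list means of 6.70 and 6.79 in the HCC/CC metastases, above the 4.05 to 6.66 of their primaries. In uterine carcinoma the means were 6.54 in the abdomen and 7.64 in the liver metastasis, against 7.35 to 8.40. The gastric and hepatoblastoma metastases lay inside the range of their primaries. Members of a list can vary together, so such counts are not independent. Matrix genes, 17 of 17 above 0, had a median of 0.61, and matrix proteases with their inhibitors, 19 of 19 above 0, a median of 0.55. Integrins and adhesion receptors lay above 0 for 16 of 17 (median 0.55), chemokines and cytokines for 19 of 21 (median 0.57), and the class II antigen presentation genes for 8 of 8 (median 0.69). Regulators and products of epithelial-mesenchymal transition lay above 0 for 9 of 14 (median 0.26), epithelial junction and keratin genes for 11 of 17 (median 0.25), and metastasis suppressors for 14 of 15 (median 0.30). Itgb4, the hemidesmosome integrin, had 1.43 ± 0.40 and Plau, urokinase, 0.99 ± 0.28, each with an adjusted p of 0.263 (limma). Timp1, an inhibitor of matrix metalloproteases, had 1.57 ± 0.57 (adjusted p = 0.396), and Epcam, an epithelial adhesion molecule, 2.09 ± 0.98 (adjusted p = 0.52).

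Metastases in the liver, 1 gastric and 1 uterine, were set against the primaries with tumour type as a block and 1 term per site. Here 19 genes rose (0.15% of genes tested) and 1 fell (0.158% called in either direction, limma), and 10 of the 19 were liver genes by the sorted cells. Of 16 hepatocyte markers tested, 3 rose (Alb, Apoa2 and Apoh), and the median of the list was 4.35 against -0.01 over all genes. Of 13 acute phase genes, which the liver secretes in inflammation, Itih4, Fgg and Hp rose, with a list median of 3.47. The same gastric and uterine primaries serve the liver and the abdomen comparisons. The promoters of Alb and Apoa2 are shown because these genes are the hepatocyte products that carry the result. Alb had 1 promoter entry and Apoa2 had 2. The Apoa2 entry shown was chosen because it holds the forkhead motif, and the other entry is not shown. Both are RefSeq sequences of GRCm38.p6, the 250 bases before the gene's start on the plus strand, Alb at chr5:90460620-90460869 and Apoa2 at chr1:171224804-171225053. Capitals mark GTTAAT in Alb, a core of the recognition motif of the hepatocyte factor HNF1, and TGTTTAC in Apoa2, a forkhead motif of the kind bound by FOXA factors.
Alb: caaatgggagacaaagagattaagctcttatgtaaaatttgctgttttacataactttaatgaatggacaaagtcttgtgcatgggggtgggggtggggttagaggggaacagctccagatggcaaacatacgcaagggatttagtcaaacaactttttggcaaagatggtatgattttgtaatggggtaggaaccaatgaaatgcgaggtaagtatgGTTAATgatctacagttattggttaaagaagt
Apoa2: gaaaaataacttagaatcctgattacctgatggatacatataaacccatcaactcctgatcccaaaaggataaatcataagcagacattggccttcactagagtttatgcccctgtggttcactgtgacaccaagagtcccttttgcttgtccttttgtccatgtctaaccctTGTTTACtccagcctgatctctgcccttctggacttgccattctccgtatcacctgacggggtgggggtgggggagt
The letters were searched on both strands, as GTTAAT or ATTAAC and as TGTTTAC or GTAAACA, and the pairs do not overlap one another in these windows. GTTAAT was in 6.43% of 32851 RefSeq promoters of this length and TGTTTAC in 3.17%. Of the 19 genes that rose, 14 had a promoter entry, of which 3 (Alb, Dnmt3l and Pzp) held GTTAAT and 2 (Apoa2 and Apoh) held TGTTTAC. A gene was counted when any of its entries held the letters, whereas the percentages are over single entries. A match describes the letters and not a bound site.

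Alb, serum albumin, was at 13.39 in the uterine liver metastasis, against 2.96, 8.24 and 4.06 in uterine primaries 1 to 3 and 3.13 in the uterine abdomen metastasis. In gastric adenocarcinoma it was at 7.84 in the liver metastasis and 2.75 in the abdomen metastasis, against 5.06, 7.23, 3.46 and 4.78 in the primaries. The uterine liver metastasis stood far above its primaries, while the gastric one stood just above its highest primary. The site difference was 5.42 ± 0.97 (limma, adjusted p = 0.0124), and liver-site exceeded abdomen-site metastases of the same 2 tumour types by 7.68 ± 1.21 (adjusted p = 0.00946). Apoa2, an apolipoprotein of high density lipoprotein, was at 12.47 in the uterine liver metastasis against 3.63, 6.94 and 3.44, and at 5.35 in the gastric one against 3.28, 3.28, 3.63 and 3.71 (4.77 ± 0.95, adjusted p = 0.0294). Fgg, the fibrinogen gamma chain, was at 11.94 in the uterine liver metastasis and 3.63 in the gastric one. Without the uterine liver metastasis its difference was 0.61, against 4.54 ± 0.88 with it, and the calls of Alb, Apoa2, Apoc1, Itih4, Fgg and Ror2 were lost. Apoa2, Fgg and Ror2 also lost theirs without uterine primary 1, and Ror2 without HCC/CC primary 6. Apoc1, an apolipoprotein, had 4.81 ± 0.65 (adjusted p = 0.00056) and Itih4, a plasma protease inhibitor chain, 4.55 ± 0.76 (adjusted p = 0.00768). Fewer or more cells of a type and less or more RNA per cell cannot be told apart in these bulk samples, and neither can hepatocytes of the host and expression by the tumour.

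Adh1, a class I alcohol dehydrogenase, rose by 5.36 ± 0.83 at the liver site (limma, adjusted p = 0.00266) and was not among the liver genes. It was at 12 in the gastric liver metastasis, against 3.64, 3.74, 5.61 and 5.38 in the gastric primaries. The uterine liver metastasis had 11.23 and the uterine abdomen metastasis 10.47, against 9.06, 7.90 and 6.89. Its call was lost without the gastric liver metastasis. The gene that fell was Ror2, a Wnt5a receptor (-2.04 ± 0.42, adjusted p = 0.0348), which was at 3.87 and 3.80 in the gastric and uterine liver metastases. Gastric primaries had 6.30, 4.03, 5.35 and 5.38 and uterine primaries 6.24, 7.50 and 5.93. The groups did not overlap, but gastric primary 2 lay close to the gastric liver metastasis, both below the filter value of 4.15. The other gene called between the sites was Sfrp2, a secreted Wnt antagonist, lower in liver-site than abdomen-site metastases by -4.19 ± 0.67 (adjusted p = 0.00946), as 2 genes in all were called there (0.0158%). The Alb call between the sites was lost without either uterine metastasis, and the Sfrp2 call without the gastric abdomen or the uterine liver metastasis. The count of 20 genes at the liver site was 216 without the gastric liver metastasis, 38 without the uterine liver metastasis, 35 without gastric primary 2, 35 without HCC/CC primary 2 and 11 without uterine primary 1.

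**Figure D1:**
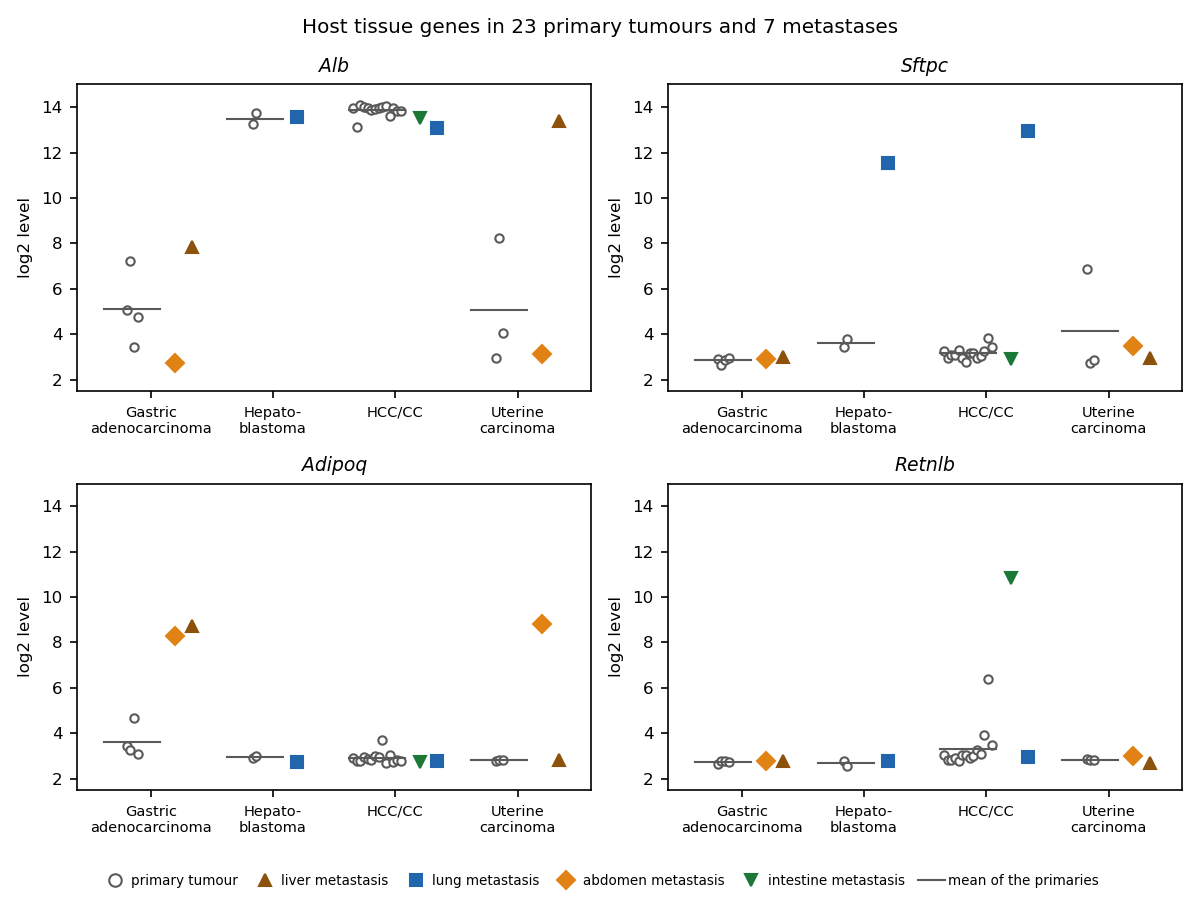
Log2 level of Alb (hepatocyte), Sftpc (alveolar type II cell), Adipoq (adipocyte) and Retnlb (gut goblet cell) in every array, by tumour type on the horizontal axis. Open circles are primaries, the bar is their mean, and filled symbols are single metastases by site. Sftpc stood at 11.53 and 12.95 in the 2 lung metastases and Retnlb was highest in the HCC/CC intestine metastasis, at 10.83, whereas Adipoq was high in 3 metastases, 1 of them labelled liver.

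The 2 liver metastases differed in how much of the liver program they showed. In the uterine liver metastasis 353 of 684 liver genes (51.6%) lay above every uterine primary by at least 1 log2 unit, against 5.62% of all genes tested. In the gastric liver metastasis the count was 22 (3.22%), against 1.26% of all genes. Uterus genes did so there for 28 of 829 (3.38%) and lung genes for 18 (2.57%). Small intestine genes did so for 9 (1.29%) and stomach genes for 4 (0.837%), so the liver share was not the highest. The mean level of the 17 hepatocyte markers measured was 10.37 in the uterine liver metastasis, against 3.15 to 4.76 in its primaries, just below the 10.52 to 12.23 of HCC/CC primaries. In the gastric liver metastasis it was 4.83, against 3.47 to 4.73. Kupffer cell markers, the resident macrophages of liver, had a mean of 6.52 in the uterine liver metastasis against 3.08 to 3.54, and 4.92 in the gastric one against 3.53 to 5.01. The lung metastasis of HCC/CC had 47 of 701 lung genes (6.7%) above every primary against 0.932% of all genes, and that of hepatoblastoma 32 (4.56%) against 1.41%. In the hepatoblastoma metastasis small intestine genes did so for 33 (4.72%) and stomach genes for 37 (7.74%), and 26 lung genes (3.71%) lay below both primaries against 0.766% of all genes. The HCC/CC intestine metastasis had 20 of 699 small intestine genes (2.86%) above every primary, against 0.648% of all genes.

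Genes of the organ of origin were counted in the other direction, below every primary by at least 1 log2 unit. Stomach genes did so for 9 (1.88%) in the gastric abdomen metastasis against 0.276% of all genes, and for 10 (2.09%) in the gastric liver metastasis against 0.19%. Uterus genes did so for 48 of 829 (5.79%) in the uterine abdomen metastasis against 1.2%, and for 93 (11.2%) in the uterine liver metastasis against 2.25%. Uterus genes also lay above every primary for 70 (8.44%) in the abdomen metastasis, against 2.74% of all genes, and for 42 (5.07%) in the liver metastasis, against 5.62%. In the hepatoblastoma lung metastasis 12 of 684 liver genes (1.75%) lay below both primaries, against 0.766% of all genes, and 18 (2.63%) lay above both, against 1.41%. For the abdomen metastases the labels name no host organ whose genes could be counted. Above every primary there, the gastric one had 25 of 829 uterus genes (3.02%) and 17 of 701 lung genes (2.43%) against 0.656% of all genes. The uterine one had 54 stomach genes (11.3%), 76 lung genes (10.8%), 41 liver genes (5.99%) and 39 small intestine genes (5.58%) above every primary, against 2.74%.

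**Figure D2:**
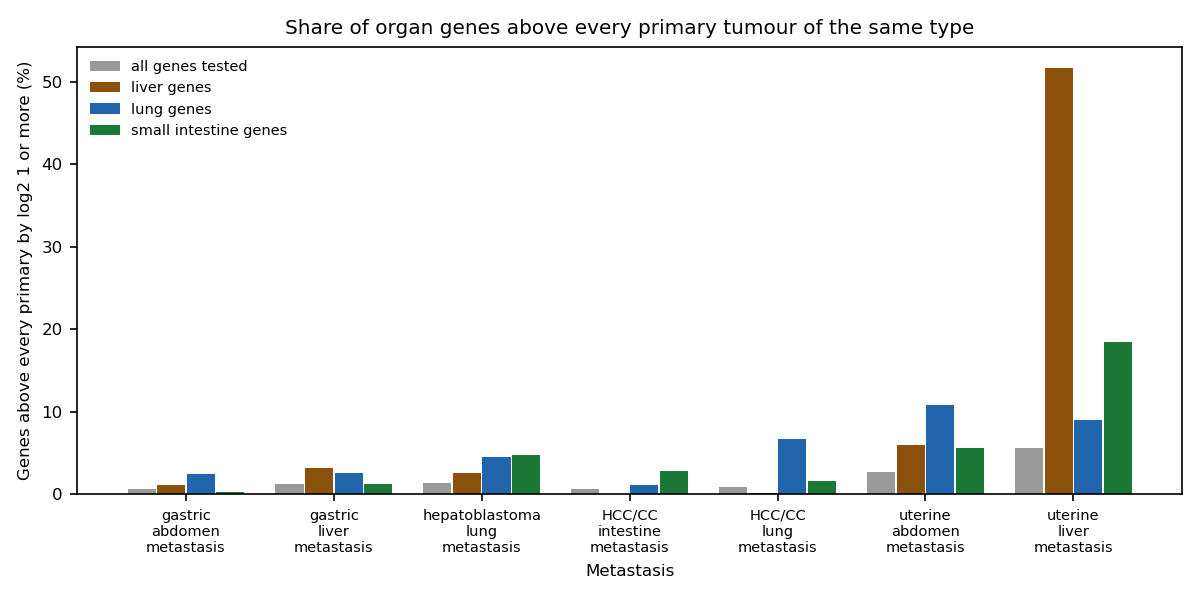
Share of genes, in percent, that lay above every primary of the same type by at least 1 log2 unit in each of the 7 metastases, for all genes tested and for liver, lung and small intestine genes. Liver genes reached 51.6% in the uterine liver metastasis and 3.22% in the gastric liver metastasis. Uterus genes, which are not drawn, reached 3.38% in the gastric liver metastasis. The number of primaries to be exceeded differs between types, so each share is read against the grey bar beside it.

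Lung metastases, 1 of hepatoblastoma and 1 of HCC/CC, carried genes of both alveolar and airway epithelium. In all 18 genes rose and none fell (limma, 0.142% of genes called), and 14 of the 18 were lung genes. Of 8 alveolar type II and club cell markers tested, 4 rose, with a list median of 4.49 against 0.05 over all genes. Of 8 alveolar type I markers 2 rose, Ager and Akap5, with a median of 2.61. The lung and intestine comparisons use the same HCC/CC primaries.

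Sftpc, surfactant protein C of alveolar type II cells, was at 11.53 in the hepatoblastoma lung metastasis, against 3.43 and 3.77 in its primaries. In the HCC/CC lung metastasis it was at 12.95, against primaries between 2.76 and 3.83 with a median of 3.12. No primary approached either metastasis, and the difference was 9.02 ± 0.61 (limma, adjusted p = 2.48e-10). Scgb1a1, the club cell secretory protein, was at 8.96 against 3.0 and 3.03 in hepatoblastoma and at 12.70 against 2.72 to 3.14 in HCC/CC (8.18 ± 0.42, adjusted p = 9.58e-13). Sftpa1, surfactant protein A, was at 8.99 against 3.06 and 3.09, and at 10.33 against 2.88 to 4.62 (6.45 ± 0.34, adjusted p = 9.58e-13). These 3 genes were higher in the HCC/CC than in the hepatoblastoma metastasis. Ager, a receptor abundant on alveolar type I cells, was at 9.44 against 5.77 and 3.35 in hepatoblastoma and at 11.36 in the HCC/CC lung metastasis (6.02 ± 1.08, adjusted p = 0.00867). Ager was also at 9.54 in the HCC/CC intestine metastasis, and HCC/CC primaries ranged from 3.14 to 9.66. Cxcl15, a lung epithelial chemokine, rose by 5.45 ± 0.68 and Cbr2, an airway carbonyl reductase, by 4.78 ± 0.69. The count of 18 was 141 without the hepatoblastoma lung metastasis, 59 without HCC/CC primary 11, 51 without hepatoblastoma primary 1 and 7 without the HCC/CC lung metastasis, and that last fit lost the calls of Ager, Cxcl15 and Cbr2.

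At the abdomen site, 1 gastric and 1 uterine metastasis, 5 genes rose and none fell (limma, 0.0395% of genes called). Adipoq, adiponectin, was at 8.30 in the gastric and 8.81 in the uterine abdomen metastasis. Gastric primaries had 3.46, 3.25, 4.65 and 3.07, and uterine primaries 2.77, 2.83 and 2.84. The difference was 5.39 ± 0.63 (adjusted p = 3.9e-05). Retn, resistin, was at 7.58 in the gastric and 7.31 in the uterine abdomen metastasis, against primaries from 3.60 to 4.08 over both types (3.70 ± 0.38, adjusted p = 5.13e-06). Hoxc8, a homeobox gene of trunk mesenchyme, was at 6.11 and 6.36, against 2.60 to 3.33 (3.33 ± 0.42, adjusted p = 0.000122). All 3 were also high in the gastric metastasis labelled liver, with Adipoq at 8.72, Retn at 6.69 and Hoxc8 at 6.58, and low in the uterine liver metastasis at 2.84, 3.61 and 3.03. S100a3, a calcium-binding protein, rose by 1.85 ± 0.32, and Has2 by 2.53 ± 0.48, a call kept in 8 of the 30 fits that left out 1 array. The S100a3 call was lost without the uterine abdomen metastasis.

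Of 5 adipocyte markers tested, Adipoq and Retn rose at the abdomen site, with a list median of 1.73 against 0.00 over all genes. The mean of the 8 adipocyte markers measured was 5.46 and 5.55 in the gastric abdomen and liver metastases against 4.14 to 4.50 in gastric primaries. It was 5.66 in the uterine abdomen metastasis against 3.53 to 4.43. Skeletal muscle markers had a mean of 4.99 in the gastric abdomen metastasis and 3.18 to 3.41 in its primaries. Mean pancreatic acinar markers were at 5.63 there, inside the 3.77 to 8.06 of gastric primaries. The part of these cell types in the differences was not tested. The count of 5 genes was 31 without the gastric abdomen metastasis, 12 without the uterine one and 16 without uterine primary 1.

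The intestine site was a single HCC/CC sample, which the fit assumes to vary like the other groups. There 38 genes rose and none fell (limma, 0.3% of genes called), 12 of them small intestine genes and 20 assigned to none of the 8 organs. Retnlb, a resistin-like protein of gut goblet cells, was at 10.83, against HCC/CC primaries between 2.79 and 6.40 with a median of 3.03, and 2.97 in the lung metastasis (7.52 ± 0.72, adjusted p = 4.71e-07). Car1, a carbonic anhydrase abundant in colon, was at 10.49 against 3.06 to 6.91 (6.24 ± 1.21, adjusted p = 0.0146). Grp, gastrin-releasing peptide, rose by 7.81 ± 1.06, Chodl, a lectin-like membrane protein, by 5.43 ± 0.96, and Hepacam2, an adhesion protein, by 4.78 ± 0.98. AU015836, a gene with no descriptive name, was at 8.93 against 3.15 to 4.44 (5.35 ± 0.33, adjusted p = 1.05e-10). Absorptive enterocyte markers were not raised as a list, with 1 of 9 called and a median of -0.74 against 0.04 over all genes. The called gene was Mep1a, a brush border protease (1.90 ± 0.42, called in 9 of 29 fits that left out 1 array). The mean of the 10 enterocyte markers measured was 7.29 here. It was 5.26 to 8.02 in HCC/CC primaries and 3.58 to 3.79 in gastric primaries. The list was thus already high in the liver tumours, so its median does not measure enterocyte content. Of 6 Paneth and goblet markers none was called although the median was 3.76, and Zg16, a goblet lectin, had 5.11 ± 1.35 (adjusted p = 0.156). The count of 38 was 115 without HCC/CC primary 11.

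Within HCC/CC, the intestine and lung metastases together differed from the 14 primaries in 619 genes (limma, 4.89% of genes called), of which 200 were lower (1.58%) and the rest higher (3.31%). Of the 200 that fell, 110 were liver genes. Of those that rose, 54 were lung and 50 small intestine genes, the 2 host organs, and 223 were assigned to none of the 8 organs. Organs that were not hosts had 53 uterus and 31 stomach genes among them. By these counts the host organs did not stand apart from uterus. Gp2, a glycoprotein of microfold cells and pancreatic granules, was at 12.94 in the intestine and 13.06 in the lung metastasis, against primaries with a lowest value of 2.66, a median of 3.07 and a highest of 12.54. Reg3g, a secreted antibacterial lectin, was at 12.86 and 13.38 against 3.24, 4.25 and 13.05 in the same order. Both metastases were far above the median primary for both genes, and the highest primary, number 11 in each case, lay close to them.

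Umod, uromodulin, was at 9.95 and 11.85, against primaries from 2.37 to 11.30 with a median of 2.66 (7.20 ± 1.51, limma, adjusted p = 0.00707). Spib, an Ets factor of microfold and lymphoid cells, was at 11.18 and 11.11, against 3.07 to 10.61 with a median of 3.70 (6.39 ± 1.36, adjusted p = 0.00761). Tnfrsf11b, the decoy receptor osteoprotegerin, was at 9.41 and 9.92 against 2.58 to 9.03 with a median of 3.33 (5.77 ± 0.91, adjusted p = 0.000601). In each of these the highest primary was again number 11. Gp2 rose by 8.85 ± 1.70 (adjusted p = 0.00385), Reg3g by 7.29 ± 1.88 (adjusted p = 0.025), and Cybrd1, a ferric reductase of duodenum, by 6.49 ± 1.31. Of 11 microfold cell genes, a list chosen after these values were seen, 5 rose (Gp2, Spib, Tnfrsf11b, Sox8 and Ccl9) and the median was 3.15 against 0.07 over all genes. Gp2, Reg3g, Umod, Spib and Cybrd1 lost their calls when either metastasis was left out. In uterine carcinoma Gp2 was at 10.38 in the abdomen metastasis.

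Besides the 110 liver genes, the 200 that fell held 29 small intestine genes and 54 assigned to none of the 8 organs. Cyp2c29, a cytochrome P450, was at 5.66 in the intestine and 3.47 in the lung metastasis, against primaries from 7.25 to 12.26 with a median of 11.38 (-6.10 ± 1.20, limma, adjusted p = 0.00474). Cps1, the entry enzyme of the urea cycle, was at 9.28 and 3.81 against 9.81 to 13.05 with a median of 11.92 (-5.16 ± 1.04, adjusted p = 0.00581). Mbl2, mannose-binding lectin, was at 5.03 and 2.94 against 6.28 to 11.85 (-5.93 ± 1.33). No primary was as low as either metastasis for these 3 genes, and the lung metastasis was the lower for each. Of 16 hepatocyte markers 3 fell (Cps1, Tdo2 and Tat), with a median of -2.05. Of 6 Kupffer cell markers Cd5l and Vsig4 fell, with a median of -2.31. Cd5l, a macrophage scavenger protein, was at 3.31 and 3.62 against 4.46 to 10.39 with a median of 8.43 (-4.40 ± 1.12, adjusted p = 0.0238). Vsig4, a complement receptor, was at 3.08 and 2.98 against 3.47 to 9.85 with a median of 8.75 (-5.05 ± 1.35, adjusted p = 0.0279).

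Mean levels of cell type markers moved with these differences. Hepatocyte markers had 10.32 in the intestine and 8.55 in the lung metastasis, against 10.52 to 12.23 in the primaries. Kupffer cell markers had 3.44 and 3.37 against 4.01 to 7.93, so here too both metastases lay below every primary. Cholangiocyte markers, the bile duct genes of the cholangiocarcinoma component, had 7.76 and 9.03, inside the primaries' 3.86 to 10.40, and none of 8 was called, with a median of 1.71. Among 17 integrins and adhesion receptors Itgav and Itgb4 rose (median 1.16), and none of 19 proliferation genes (median 1.51) or 17 matrix genes (median 1.36) was called. In the lung metastasis 92 of 684 liver genes (13.5%) lay below every primary by at least 1, against 0.861% of all genes. In the intestine metastasis 13 (1.9%) did, against 0.134%. The part of hepatocyte and Kupffer cell content in the calls was not tested. Cyp2c29, Cps1 and Tdo2 lost their calls without the lung metastasis, and Mbl2, Cd5l and Vsig4 without either metastasis.

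**Figure D3:**
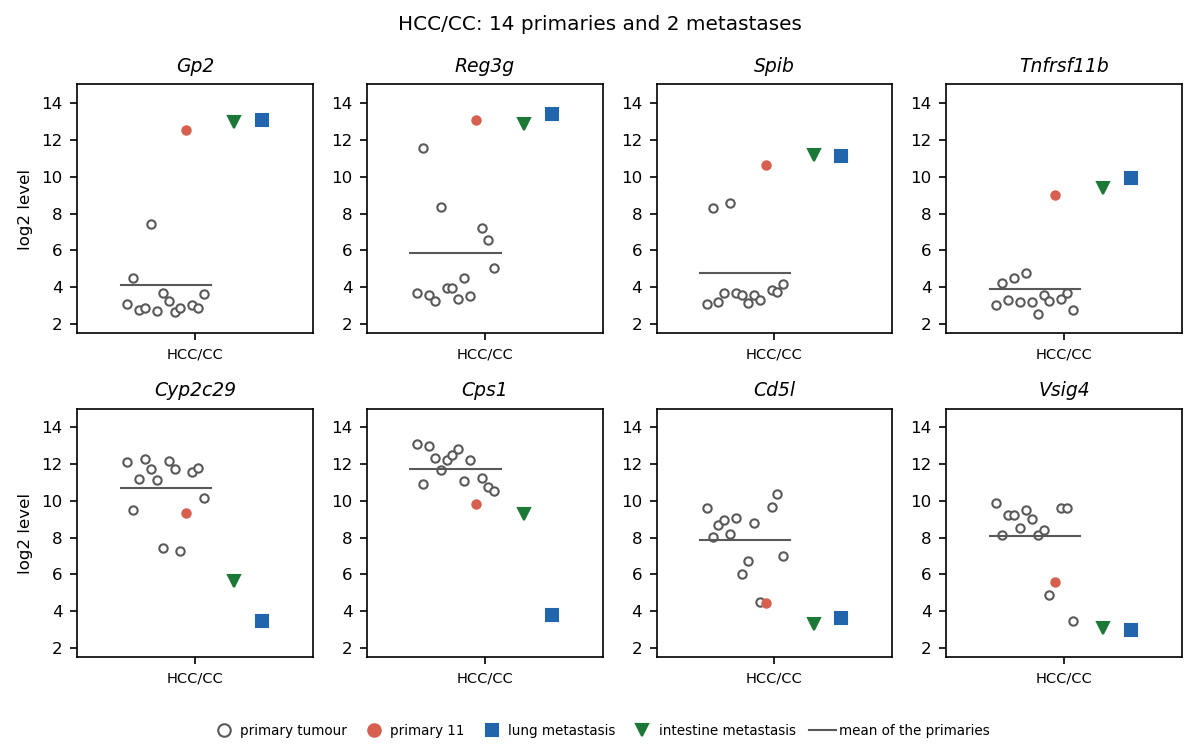
Log2 level of 4 genes that rose and 4 that fell in HCC/CC metastases, in 14 primaries (circles, with their mean as a bar), the intestine metastasis (triangle) and the lung metastasis (square). Primary 11, the filled circle, was the highest primary and lay close to the metastases for Gp2, Reg3g, Spib and Tnfrsf11b, and lay above both for the 4 genes of hepatocytes and macrophages.

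Primary 11 stood apart from the other 13 HCC/CC primaries in the direction of the metastases. It was the highest primary for 303 of the genes that rose (72.3%), against 11% of all genes, and the lowest for 84 of the 200 that fell (42%), against 6.52%. Against primary 11 alone, the mean of the metastases was at least 1 higher for 71 of them (16.9%, median difference 0.45), whereas against each other primary it was so for 71.6% to 98.6%. For the genes that fell the share was 37% against primary 11 and 34.5% against primary 2, and 89% to 99.5% against the other 12. The count of 619 was 1162 without primary 11, 1150 without primary 2, 150 without the intestine metastasis and 64 without the lung metastasis. It was 95 with the difference between the 3' and 5' actin probe sets, a measure of RNA integrity, as a covariate. That difference was 0.569 in the intestine and 0.57 in the lung metastasis, below every primary (0.666 to 1.29). The same difference for Gapdh was 0.51 and 0.44, inside the range of the primaries (0.15 to 0.70). The actin measure thus moved with the comparison and the Gapdh measure did not. The part of RNA integrity in the calls was not tested beyond the actin covariate.

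Uterine carcinoma metastases, 1 in the abdomen and 1 in the liver, differed from the 3 primaries in 227 genes, 129 higher (1.02%) and 98 lower (0.774%, limma, 1.79% of genes called). Of the 129 that rose, 62 were assigned to none of the 8 organs. That was a smaller share than among all genes tested, where 3477 of 12659 were assigned to an organ. The largest differences were those of Sptssb, a subunit of the enzyme that starts sphingolipid synthesis (6.24), Itln1 (5.43), Ugt2b34, a glucuronosyltransferase (5.16), and Muc5b, a gel-forming mucin (5.10). Krt5, a basal keratin, was at 11.42 in the abdomen and 11.98 in the liver metastasis, against 9.42, 5.73 and 7.96 in primaries 1 to 3 (4.00 ± 0.60, adjusted p = 0.000173). Col17a1, the hemidesmosome collagen, was at 10.31 and 10.94 against 7.61, 4.56 and 7.10 (4.20 ± 0.53, adjusted p = 1.72e-05). Trp63, the transcription factor p63 of basal cells, was at 8.08 and 8.94 against 5.73, 3.52 and 5.57 (3.57 ± 0.38, adjusted p = 2.6e-06). Both metastases exceeded every primary for the 3 genes, with primary 1 the nearest.

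Krt14, the partner of Krt5, was at 12.29 and 12.44 against 9.31, 5.88 and 10.20 (3.90 ± 0.85, limma, adjusted p = 0.0103), and Krt6a, a keratin of stressed epithelium, rose by 3.91 ± 0.80. Bnc1, basonuclin, a zinc finger protein of basal keratinocytes that also marks mesothelium, was at 8.15 and 9.28 against 4.98, 2.86 and 3.07 (5.08 ± 0.42, adjusted p = 1.92e-08). It was the one gene called among 7 mesothelial markers, whose median was 0.29 against -0.02 over all genes. Of 17 basal and squamous genes, a list chosen after these values were seen, 10 rose, with a median of 3.04. The mean of the list was 9.21 in the abdomen and 10.02 in the liver metastasis, against 5.63 to 8.17 in the primaries. Il33, an alarmin of epithelial and endothelial nuclei, was the one gene called among 21 chemokines and cytokines (3.52 ± 0.75, adjusted p = 0.009), with a list median of 1.70. Itln1, a secreted lectin that binds microbial sugars, was at 11.10 in the abdomen and 5.88 in the liver metastasis, against 3.73, 2.64 and 2.83 (5.43 ± 0.80, adjusted p = 0.000167). It was the one gene called among 6 Paneth and goblet markers, whose mean was 6.33 and 5.49 against 3.90 to 5.32. Neutrophil markers had a mean of 7.96 and 9.17 against 5.65 to 7.90 in the primaries, and the part of either cell type in these differences was not tested.

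Of the 98 genes that fell in the uterine metastases, 43 were uterus genes and 33 were assigned to none of the 8 organs. Pgr, the progesterone receptor, was at 7.16 in the abdomen and 3.87 in the liver metastasis, against 9.49, 11 and 9.95 (-4.63 ± 0.52, limma, adjusted p = 3.93e-06). Calb1, a calcium-binding protein of endometrial epithelium, was at 5.20 and 3.27 against 9.72, 12.06 and 6.64 (-5.23 ± 0.76). Msx1, a homeobox gene of uterine epithelium, was at 3.80 and 3.01 against 5.33, 9.96 and 8.88 (-4.65 ± 0.71). No uterine primary was as low as either metastasis for these genes, and the liver metastasis was lower than the abdomen metastasis each time. Hoxa10, which patterns the uterus, was at 3.91 and 2.73 against 8.44, 5.02 and 5.06 (-2.85 ± 0.56, adjusted p = 0.0047). Of 11 uterine epithelium markers 3 fell (Pgr, Hoxa10 and Emx2) and none rose, while the median of the list was 0.02. Their mean was 8.09 and 6.84 against 7.74 to 8.68. Smooth muscle markers, genes of the muscular wall of the uterus, lay above 0 for 0 of 5 tested, with a median of -1.90 and none called. The mean of the 6 measured was 5.53 in the abdomen and 5.68 in the liver metastasis, against 8.43, 7.54 and 5.75 in primaries 1 to 3, so both metastases lay below every primary. The part of smooth muscle content in the differences was not tested. Of 15 Wnt targets 3 fell, with a median of -1.65. Apcdd1, a Wnt inhibitor, was at 4.67 and 3.60 against 5.07, 8.38 and 11.48 (-4.17 ± 0.87, adjusted p = 0.00767), Sp5 fell by 2.18 on the log2 scale (adjusted p = 0.00582) and Axin2 fell by 1.99 (adjusted p = 0.0401).

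**Figure D4:**
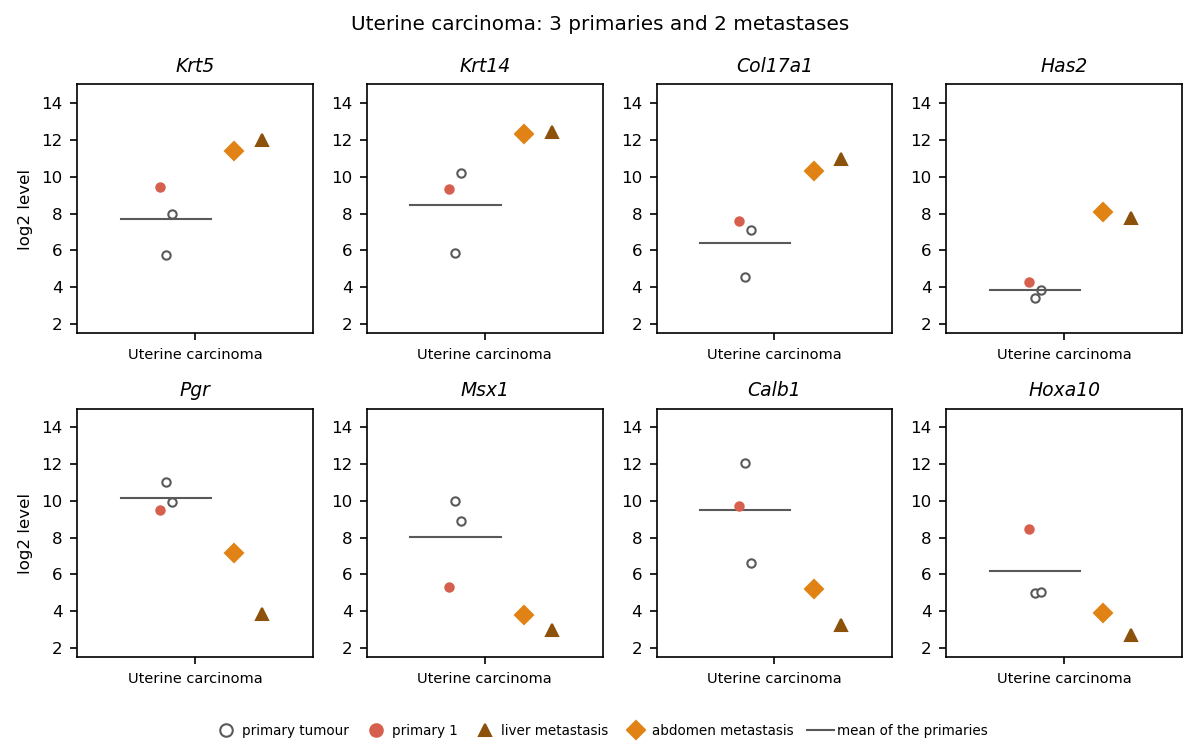
Log2 level of 4 genes that rose and 4 that fell in uterine carcinoma metastases, in 3 primaries (circles, with their mean as a bar), the abdomen metastasis (diamond) and the liver metastasis (triangle). Both metastases lay above every primary for Krt5, Krt14, Col17a1 and Has2, and below every primary for Pgr, Msx1, Calb1 and Hoxa10. Primary 1 is the filled circle.

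Of the 129 genes that rose, 20 were liver genes, and of 13 acute phase genes Hp and Itih4 rose, with a median of 3.85. None of 19 proliferation genes (median -0.95) and none of 16 hypoxia and glycolysis genes (median 0.94) was called. Primary 1 was the highest primary for 95 of the 129 genes that rose (73.6%), against 33.8% of all genes, and the lowest for 60 of the 98 that fell (61.2%), against 36%. Against primary 1 alone the mean of the metastases was still at least 1 higher for 115 of the 129 (89.1%, median difference 1.86) and at least 1 lower for 68 of the 98 (69.4%). The count of 227 was 390 without primary 1, 136 without primary 2 and 96 without the liver metastasis. Krt6a, Hoxa10, Apcdd1 and Sp5 lost their calls without the liver metastasis, Il33, Emx2 and Sptssb without it or primary 2, Muc5b without the abdomen metastasis, primary 2 or primary 3, and Krt14 without either metastasis or primary 2.

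Gastric adenocarcinoma metastases, 1 in the abdomen and 1 in the liver, differed from 4 primaries in 30 genes, 27 higher (0.213%) and 3 lower (0.0237%, limma, 0.237% of genes called). Of the 27 that rose, 20 were assigned to none of the 8 organs, as were most genes tested. Adipoq rose by 4.90 ± 0.79 (adjusted p = 0.00205) and Retn by 3.32 ± 0.52, with the sample values given for the abdomen site. Scg2, a granin of secretory granules, was at 6.76 in the abdomen and 11.27 in the liver metastasis, against 3.04, 4.98, 5.50 and 3.12 in primaries 1 to 4 (4.85 ± 0.69, adjusted p = 0.000606). Tph1, the serotonin-making hydroxylase of enteroendocrine cells, was at 6.89 and 5.73 against 2.90, 3.04, 4.54 and 2.84 (2.98 ± 0.37, adjusted p = 0.000113). Dlk1, an oncofetal Notch ligand relative, was at 6.58 and 7.74 against 3.60, 4.25, 3.69 and 3.65 (3.36 ± 0.29, adjusted p = 1.98e-07). Both metastases exceeded every primary for the 3 genes. Chgb, chromogranin B, separated the metastases, with 11.32 in the liver, 2.81 in the abdomen and 2.76 to 4.25 in the primaries (3.77 ± 1.11, adjusted p = 0.33). Of 7 neuroendocrine genes tested, a list chosen after these values were seen, 3 rose (Scg2, Tph1 and Snap25) and the median was 2.29 against 0.02 over all genes.

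Of the 3 genes that fell, Tff1, the trefoil peptide of gastric pit mucus, was at 7.55 in the abdomen and 5.92 in the liver metastasis, against 12.16, 9.48, 10.80 and 12.96 (-4.61 ± 0.93, limma, adjusted p = 0.023). Its level in primary 2, the lowest, was nearest to the metastases. Irx5, an Iroquois homeobox gene, had -2.48 ± 0.51 and Kcnu1, a potassium channel of sperm, -2.25 ± 0.49. Of 10 gastric epithelium markers Tff1 was the one called, while the list median was -3.23. Tff2, the neck cell trefoil peptide, had -5.73 (adjusted p = 0.318) and Gkn2, a gastrokine, -5.05 (adjusted p = 0.104). The mean of the gastric markers was 4.49 and 3.60 in the metastases and 4.42 to 7.14 in the primaries, so the groups overlapped through primary 2. Interferon genes had a median of 1.31 over 11 members, none called. Against primary 2 alone the metastases were at least 1 higher for 20 of the 27 genes (74.1%), and primary 2 was the highest primary for 17 (63%) against 26.9% of all genes. The count of 30 was 91 without primary 2, 51 without the abdomen metastasis, 18 without primary 4 and 16 without the liver metastasis. Adipoq and Scg2 lost their calls without the liver metastasis and Retn without the abdomen metastasis. Tff1 lost its call without the liver metastasis, primary 1 or primary 4, Irx5 without the abdomen metastasis or primaries 1, 3 or 4, and Kcnu1 was called in 7 of 30 fits that left out 1 array.

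Among the genes that rose in gastric metastases, Rbm48, Gatad1, Ankib1, Krit1 and Mterf1b are close neighbours on chromosome 5, a run noticed after the values were seen. Gatad1, a zinc finger protein, was at 10.91 in the abdomen and 11.10 in the liver metastasis, against 7.73, 9.71, 7.85 and 8.77 in primaries 1 to 4 (2.49 ± 0.36, limma, adjusted p = 0.000671). Krit1, the cerebral cavernous malformation protein, was at 8.85 and 9.29 against 6.99, 8.28, 7.02 and 7.31 (1.67 ± 0.32, adjusted p = 0.017). Ankib1 had 2.07 ± 0.39, Rbm48 2.05 ± 0.36 and Mterf1b 2.05 ± 0.38, and in all 5 genes primary 2 was the highest primary. The neighbours between and beyond them had similar differences that were not called, such as Akap9 with 1.74, Cyp51 with 1.86, Cdk14 with 2.09, Cldn12 with 1.33, Gtpbp10 with 1.71 (adjusted p = 0.052), Cfap69 with 2.55 and Steap1 with 1.76. Beyond the run the difference was 0.59 at Steap4 and -0.12 at Sri on one side, and 0.97 at Fam133b and 0.94 at Cdk6 on the other. Over all 12409 windows of 11 neighbouring tested genes, the median difference from the primaries reached its highest value here, 2.29 in the liver and 1.81 in the abdomen metastasis, and the 99th percentile was 0.41 and 0.47.

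**Figure D5:**
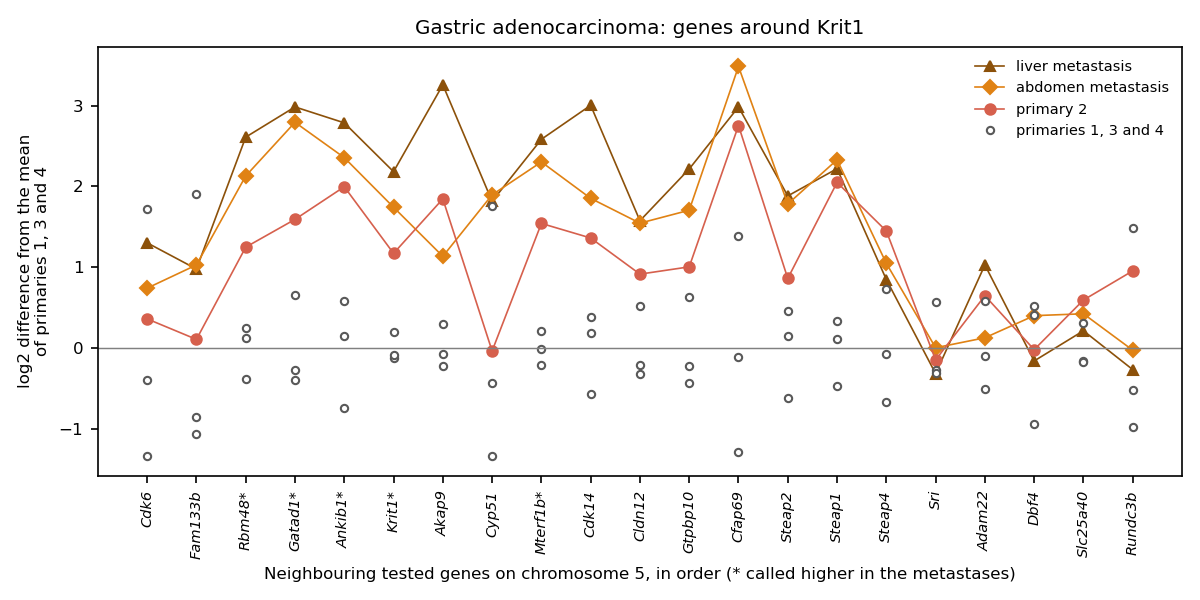
Log2 difference from the mean of gastric primaries 1, 3 and 4 for tested genes in their order along chromosome 5 around Krit1, with the liver metastasis (triangles), abdomen metastasis (diamonds), primary 2 (filled circles) and the other primaries (open circles). From Rbm48 to Steap1 both metastases lay above the 3 primaries, with Cyp51 the gene where a primary came close, and from Sri onward they did not stand apart. An asterisk marks the 5 called genes.

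The hepatoblastoma comparison had 1 lung metastasis against 2 primaries, and the lone metastasis was assumed to vary like the other groups. In this fit 2 genes rose and 2 fell (limma, 0.0316% of genes called). Ankrd2, a muscle ankyrin repeat protein, was at 7.0 against 4.80 and 3.97 (2.61 ± 0.35). Dcaf4, a ubiquitin ligase adaptor, was at 7.88 against 6.02 and 5.72 (2.0 ± 0.37). Cyp1a1, a cytochrome P450 induced through the aryl hydrocarbon receptor, was at 3.30 against 5.59 and 7.04 (-3.01 ± 0.51), and Ctsz, cathepsin Z, at 8.06 against 10.11 and 11.68 (-2.83 ± 0.47). Sftpc, whose spread in this fit includes the HCC/CC intestine and lung metastases as 1 group, had 7.93 ± 1.94 and was not called (adjusted p = 0.376). The metastasis lay outside the primaries for the 4 called genes, with primary 1 the nearer each time. Hepatocyte markers had a mean of 11.53, inside the 10.69 to 11.87 of the primaries. The count of 4 was 68 without primary 1, 2 without primary 2 and 9 without either HCC/CC metastasis. Ctsz and Cyp1a1 lost their calls without primary 2, and Dcaf4 was called in 18 of 29 fits that left out 1 array.

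The metastasis difference itself differed between the tumour types for 155 genes (limma F test over 3 contrasts, 1.22% of genes). Sites differed between types as well. Gastric and uterine metastases were in abdomen and liver, that of hepatoblastoma in lung, and those of HCC/CC in lung and intestine. The F test therefore does not separate tumour type from site. Dlk1 was among them with gastric adenocarcinoma the type that rose (adjusted p = 6.88e-06), Bnc1 with uterine carcinoma (adjusted p = 3.16e-06), and Cybrd1 with HCC/CC (adjusted p = 0.0176). The count was 406 without HCC/CC primary 11, 349 without HCC/CC primary 2, 316 without the uterine abdomen metastasis, 286 without uterine primary 1, 254 without the hepatoblastoma metastasis, 253 without hepatoblastoma primary 1, 95 without the HCC/CC lung metastasis and 83 without the uterine liver metastasis.

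The closest primary of each metastasis was found by Pearson's r over the 12659 genes tested, which share arrays and are not replicates. Some primary is always closest, so the second r is given beside it. Both gastric metastases were closest to primary 2, with r of 0.965 for the abdomen and 0.96 for the liver. Their second primary was near, at 0.951 and 0.947. The hepatoblastoma metastasis was closest to primary 1 at 0.96, against 0.906 for the other. In HCC/CC the intestine and lung metastases were closest to primary 11 at 0.972 and 0.959, and the second primary reached 0.915 and 0.883. The uterine abdomen metastasis was closest to primary 1 at 0.952 and the liver metastasis at 0.88, with second values of 0.902 and 0.854. Gastric, uterine and hepatoblastoma metastases had only 4, 3 and 2 primaries to match. In 6 of 7 metastases the closest primary was also the one with the nearest sample number in the labels. It was 1 to 5 numbers away, and this agreement was not tested. The exception was the HCC/CC lung metastasis, which lay 3 numbers from primary 11 and 1 number from primary 12, for which r was 0.843 and ranked 7 of 14. A shared animal, a shared array batch and likeness of the tumours cannot be told apart from these labels.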

How the data were processed

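Total RNA of dissected mouse tumours was hybridised as biotinylated cRNA to Affymetrix arrays. The deposited table holds log2 signals per probe set, as the values' range of 1.85 to 14.36 shows, and Partek 6.6 is named in the submitters' processing notes; the sources used here name no background correction or normalization. Of 45141 probe sets, 28898 name a single gene in the platform annotation, giving 17098 genes; controls (104), probe sets of several genes (551) and those not listed in the annotation used here (15588) were left out. The probe set with the highest mean over the 30 arrays stood for a gene, and 12659 genes with at least 2 arrays above the 40th percentile (4.15) were tested. Probe sets were matched to RefSeq by gene ID (28689 matched).

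limma 3.58.1 in R 4.3.3 (lmFit, eBayes with intensity trend, Benjamini-Hochberg) was fitted with tumour type as a block (25 residual degrees of freedom), with a term per site (22) and with 8 tumour and state means (22), on all 30 arrays. Standard errors use limma's moderated variance. Cell type and pathway lists are described by counts and medians, with no set test. The steps were tested on simulated data. Named genes were Prom1, the largest called increases and decreases of each comparison (up to 12 pooled, 6 otherwise), and up to 4 members of each list with the largest difference; genes called within a list are named beside its count. Members, lists and tests were chosen with earlier results of these data known, and 3 lists and the chromosome 5 run after the values here were seen.

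Alternatives changed normalization (quantile, median centring), the filter (none, 60th percentile) and the probe set (mean of all, without _x_at and _s_at). Others changed array weights, an RNA integrity covariate and the HCC/CC primaries used (only sample numbers of 486 or higher). The weight or presence of each tumour type and the organ threshold (1 or 4) were also changed, and each array was left out in turn. The number of arrays limits the precision.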

Additional observations from a re-analysis of the deposited data

Results flagged for a closer look

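Of 134 named genes, 15 had a single gastric primary far from the other 3, with a gap to its nearest neighbour that took a share of the group's range above Dixon's critical value for 4 samples; chance gives about 1 in 20 such groups. Primary 2 was the lone high value for Retn (gap share 0.985), Dlk1 (gap share 0.854) and Itga3 (gap share 0.887), and the lone low value for Irx5 (gap share 0.951), Epcam (gap share 0.925) and Esrp1 (gap share 0.865). Primary 1 was lone and high for Cbr2 (gap share 0.858), Gp2 (gap share 0.841) and Zg16 (gap share 0.839). Primary 3 was lone and high for Grp (gap share 0.908), Cyp2e1 (gap share 0.925) and Tph1 (gap share 0.883). Primary 4 was lone and high for Car1 (gap share 0.889), Timd4 (gap share 0.964) and Krt6a (gap share 0.903). In Retn, Krt6a and Itga3 the whole range was below 0.5 log2 unit.

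For 34 named genes the metastasis difference itself differed between tumour types by limma's F test, which does not separate type from site. Among genes of the uterine metastases the adjusted p was 3.16e-06 for Bnc1, 0.000515 for Pgr, 0.000759 for Calml3, 0.00163 for Col17a1, 0.00185 for Ugt2b34, 0.00666 for Krt5, 0.00666 for Msx1, 0.00941 for Calb1, 0.0113 for Itln1, 0.0385 for Apcdd1, 0.0452 for Emx2 and 0.0485 for Muc5b. Has2 had an adjusted p of 0.000759 and S100a3 one of 3.27e-05. Among genes of the gastric metastases it was 6.88e-06 for Dlk1, 0.000992 for Tph1, 0.00834 for Hoxc8, 0.0106 for Scg2, 0.0257 for Adipoq, 0.0417 for Retn and 0.0474 for Irx5. Among genes of the HCC/CC metastases it was 0.00135 for Hepacam2, 0.0052 for Grp, 0.0081 for Chodl, 0.0176 for Cybrd1, 0.027 for Tnfrsf11b, 0.0285 for Cps1, 0.0336 for Ager, 0.0383 for Cyp2c29 and 0.0417 for Cyp3a25. Among genes of the hepatoblastoma metastasis it was 0.00195 for Ankrd2, 0.00845 for Ctsz and 0.0364 for Cyp1a1, and for Apoc1, which rose at the liver site, it was 0.0259.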

How the results depend on the processing

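Counts of called genes depended on single arrays. Leaving out 1 array at a time gave 0 to 5 genes in the pooled comparison, 11 to 216 at the liver site, 4 to 31 at the abdomen site, 7 to 141 at the lung site, 26 to 115 at the intestine site, 2 to 105 between liver and abdomen sites, 16 to 91 in gastric adenocarcinoma, 2 to 68 in hepatoblastoma, 64 to 1162 in HCC/CC, 96 to 390 in uterine carcinoma and 83 to 406 between types. The pooled count of 1 (Has2) was 0 with quantile normalization, median centring, no filter, the 60th percentile filter, the mean of all probe sets, the actin covariate, HCC/CC primaries restricted to the sample numbers of the metastases, and without gastric adenocarcinoma or HCC/CC. It was 6 with equal weight of the types, 2 without hepatoblastoma and 2 (Has2 not among them) without uterine carcinoma. Quantile normalization left 2 genes in hepatoblastoma. Without a filter the liver site had 42, the abdomen site 13 and the intestine site 71. With the 60th percentile filter, which tests 9651 genes, the abdomen site had 2, the lung site 10, the intestine site 7, gastric adenocarcinoma 11, hepatoblastoma 1, uterine carcinoma 108 and the test between types 81. Without _x_at and _s_at probe sets the liver site had 33. Array weights gave 76 at the liver, 10 at the abdomen and 96 at the intestine site, 6 between liver and abdomen, 92 in gastric adenocarcinoma, 2062 in HCC/CC, 498 in uterine carcinoma and 1522 between types. The actin covariate gave 22 at the intestine site and 95 in HCC/CC. With HCC/CC primaries so restricted the liver site had 7, the abdomen site 3, the lung site 10, the intestine site 18, liver against abdomen 0, gastric adenocarcinoma 14 and the test between types 59. At an organ threshold of 1 or 4 there were 1319 or 279 liver, 1655 or 96 lung, 1856 or 215 small intestine, 1151 or 113 stomach and 1997 or 104 uterus genes. The other settings kept these counts within 1.5 times. Of single named genes, 3 changed sign, none of them called: without HCC/CC the pooled difference was -0.31 for Ndrg1 and -0.052 for Bub1, and for Chgb in gastric adenocarcinoma it was -0.48 without the liver metastasis and 8.03 without the abdomen metastasis. The causes were not tested.

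No paired analysis was possible because the labels do not tie a metastasis to a primary. With 1 metastasis per site and tumour type, effects of site and of the single sample cannot be told apart.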

Other observations

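Gastric primary 2, the primary closest to both gastric metastases over all genes, differed from them in epithelial genes. Epcam was at 6.61 in primary 2, against 11.38, 11.02 and 11.23 in primaries 1, 3 and 4, and at 11.05 in the abdomen and 11.24 in the liver metastasis. Esrp1, a splicing regulator of epithelial cells, was at 3.66 in primary 2 against 7.72, 7.83 and 8.35, and at 7.67 and 8.21 in the metastases. The mean of 17 epithelial junction and keratin genes was 7.14 in primary 2, 8.69 to 9.27 in the other primaries, and 8.51 and 8.71 in the metastases. Cdh1, E-cadherin, was at 10.14 in primary 2 and 10.27 and 10.85 in the metastases, and Krt8 at 11.63 against 12.21 and 12.19. Vim, vimentin, was at 12.51 in primary 2, inside the range of the others. These genes were chosen after their values were seen, and the difference was not tested.

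Ndn, Pdyn and Snap25 were also among the genes that rose in the gastric metastases. Ndn, necdin, an imprinted gene, was at 6.30 in the abdomen and 8.23 in the liver metastasis, against 4.77, 4.44, 5.42 and 4.10 in primaries 1 to 4 (2.58 ± 0.50, limma, adjusted p = 0.017). Pdyn, prodynorphin, a neuropeptide precursor, was at 7.04 and 4.42 against 2.42, 4.50, 3.48 and 3.11, so the liver metastasis lay inside the range of the primaries (2.35 ± 0.47, limma, adjusted p = 0.021). Snap25, a protein of vesicle fusion, was at 5.74 and 5.92 against 2.97, 4.16, 4.30 and 4.77, above every primary.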
